A study of Homo sapiens with 24 samples.

Results

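The transcripts of 10 pluripotency factors were examined for N6-methyladenosine (m6A), the methylated adenosine that is the most abundant internal mark of mRNA. The genes were POU5F1, NANOG, LIN28A, LIN28B, SALL4, DPPA4, TDGF1, L1TD1, ZFP42 and PRDM14, chosen by name, and their peaks were all entries of the deposited peak lists whose gene field held the Ensembl identifier of 1 of them. This gave 119 of 228472 peaks over 6 cell populations, with 31 of 36659 in human pluripotent stem cells (hPSCs), 23 of 32680 in definitive endoderm (DE), 17 of 29083 in pancreatic progenitors (PPs) and 9 of 31519 in human islet-like organoids (hILOs). A separate experiment gave 17 of 43312 peaks in wild-type PPs (WT PPs) and 22 of 55219 in PPs without the m6A demethylase ALKBH5 (A5-KO PPs).

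All cells came from MEL1 INS GFP/W, an established human embryonic stem cell line with a GFP reporter at the INS locus, kept on CF1 mouse feeder cells. ALKBH5 was intact in all populations except A5-KO PPs, which came from 1 knockout line made with CRISPR-Cpf1. Differentiation ran through activin A and CHIR99021 to DE, then through KGF, retinoic acid, LDN-193189, GDC-0449, vitamin C and EGF to PPs, and through aggregates in media with zinc sulfate, heparin, 616452, T3, LDN-193189, compound E and vitamin C to hILOs; the study's methods add a later medium with N-acetyl cysteine and trolox and without LDN-193189 and compound E, which the labels do not list. m6A-seq pulls down RNA fragments with an antibody against m6A (IP) and sequences them beside the fragments before the pull-down (input), so that IP exceeds input, as a peak, over a methylated stretch. In total 24 libraries were labelled, 2 IP and 2 input for each population, in 2 batches. The first batch (hPSC, DE, PP, hILO) used mRNA and a SYSY antibody, and the second (WT PP, A5-KO PP) used total RNA, a Millipore antibody, a different library kit and input depleted of rRNA. Batch and experiment coincide, so a difference between the PPs of the first batch and the WT PPs of the second cannot be told apart from these steps.

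As background, m6A is written by the METTL3-METTL14 complex, mostly in the sequence context DRACH, is removed by ALKBH5 and FTO, and is read by proteins such as those of the YTHDF family, which can shorten the life of an mRNA. In pluripotent cells the mark lies on the mRNAs of several core factors and is known for its part in clearing them when cells leave pluripotency. POU5F1 (OCT4) and NANOG are the homeodomain factors at the centre of the network, SALL4, ZFP42 (REX1) and PRDM14 are zinc finger proteins that act with them, LIN28A and LIN28B are RNA-binding proteins that block let-7 maturation, L1TD1 is an RNA-binding protein derived from a LINE-1 element, DPPA4 is a chromatin protein, and TDGF1 (CRIPTO) is the co-receptor of NODAL.

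The sequences below are shown because they hold a DRACH or GGAC motif inside the stretch that the peaks of a member share between populations. They were read from GRCh38 on the transcript strand and written as DNA, with the motif in capitals between up to 12 nt on either side. No methylated base was mapped, so the capitals mark a match of letters within a peak.

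POU5F1, 3′ UTR, chr6:31164351-31164372, minus strand, hPSC and DE: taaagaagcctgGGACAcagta
NANOG, 3′ UTR beside the stop codon, chr12:7795119-7795147, plus strand, hPSC and DE: caatttcagtctGGACActggctgaatcc
LIN28A, 3′ UTR, chr1:26428509-26428537, plus strand, hPSC, DE, PP and hILO: cctcctaagtcaAGACCattaccatttct
LIN28B, at the stop codon, chr6:105078769-105078797, plus strand, all lists: aggaaaaagacaTAACAggtcttcttcat
SALL4, 5′ part of the CDS, chr20:51792044-51792072, minus strand, all lists: cggcagctcagaGGACAtgaaggagaagc
SALL4, middle of the CDS, chr20:51790992-51791020, minus strand, all lists: atctttcttcggGGACTaatcccaaggac
SALL4, CDS before the stop codon, chr20:51784519-51784547, minus strand, all lists: ttcagtgaatgtGGACCctgttgtgtgga
SALL4, 3′ UTR, chr20:51783499-51783527, minus strand, all lists: ttactggtaactGGACAcgggtaaaagga
L1TD1, CDS, chr1:62209878-62209906, plus strand, all lists: agaggagatgaaAAACTtagagactcaag
DPPA4, 3′ UTR, chr3:109327785-109327813, minus strand, all lists but hILO: gagtggagatagAGACTcttacatttaaa
TDGF1, 3′ UTR, chr3:46582185-46582213, plus strand, hPSC and DE: tatataagacaaGAACTcccctttttttc
ZFP42, CDS, chr4:188003569-188003597, plus strand, hPSC, DE, WT PP and A5-KO PP: gcgcttctctctGGACTttaatttgcgta
ZFP42, 3′ UTR, chr4:188003893-188003921, plus strand, hPSC, DE, WT PP and A5-KO PP: ataccgttttaaGGACAtggtgcattttt

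The values behind the peaks have a limit that comes before any result. Each list numbers its peaks by gene identifier, and only over 1 ordered stretch of rows, 7.24% of the list in A5-KO PPs to 35.5% in hPSCs, did the identifiers ascend with the peak number. Inside that stretch, neighbouring peaks of the same gene had similar input reads per nt, with a Spearman correlation across neighbour pairs of 0.610 in WT PPs to 0.790 in DE. Outside it, the correlation was 0.186 in hILOs to 0.289 in A5-KO PPs. The log2 enrichment of peaks at the same place in 2 lists behaved alike, with correlations of 0.535 to 0.698 inside the stretch in both lists and 0.0727 to 0.303 outside. These correlations are descriptions across peaks, which are not replicates. Positions did not share this split, since 54.4% of hPSC peaks inside the stretch and 51.4% outside were found again in DE. Outside the stretch a row's read counts, enrichment and p-value may therefore belong to another position, and they were not used. Whether a position outside it passed the enrichment thresholds cannot be read from its row. What produced this was not tested. Of the 119 peaks, 17 lay inside, 10 in hPSCs, 4 in DE, 2 in PPs, 1 in hILOs and 0 in WT PPs and A5-KO PPs, and they belong to LIN28A, DPPA4 and PRDM14.

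**Figure D1:**
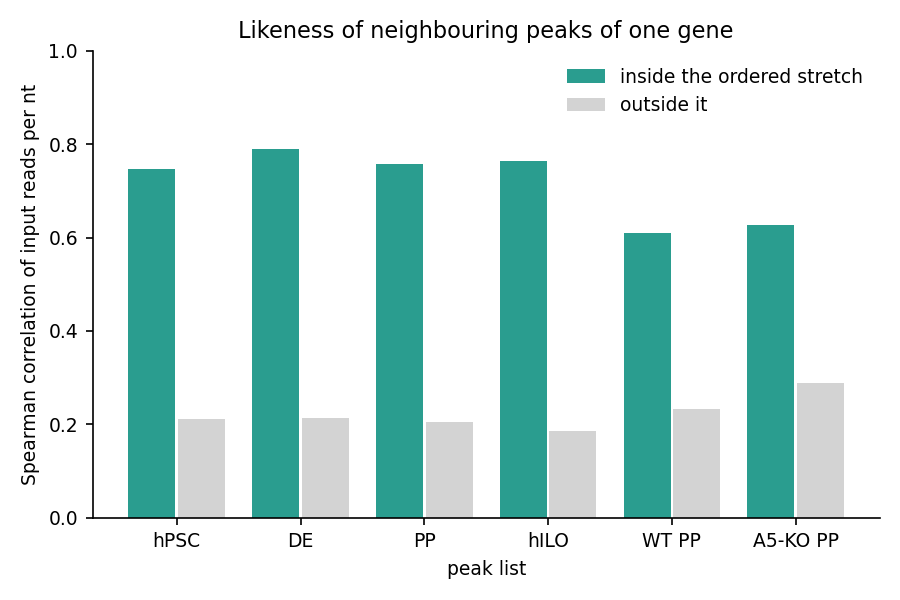
Spearman correlation of input reads per nt between neighbouring peaks of the same gene (y axis, 0 to 1) in each of the 6 peak lists (x axis), for pairs inside (green) and outside (grey) the ordered stretch of rows. The correlation lay between 0.610 and 0.790 inside and between 0.186 and 0.289 outside.

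Each population had 1 deposited list with read counts in 1 IP and 1 input column, so no value per library was analysed here and no test between populations was made. Reads inside peaks, as deposited, summed to 6987612 (PP) to 28463998 (hILO) for input and 30723097 (DE) to 79822815 (hPSC) for IP. A listed peak is read as RNA with methylation, and its lack can mean little RNA, little methylation or too few reads. It can also mean a row missing from the list. Peak numbers ran to 47862 for 43312 rows in WT PPs, 57954 for 55219 in A5-KO PPs and 36709 for 36659 in hPSCs. What the missing numbers held was not tested. Fewer cells that hold a transcript and less of it per cell cannot be told apart in these bulk samples. The populations were checked by how many genes of fixed marker lists had a peak. The 7 DE markers had one in 7 cases in DE and 2 in hPSCs, the 6 PP markers in 5 cases in PPs and hILOs, 6 in both WT PPs and A5-KO PPs, 2 in hPSCs and 1 in DE, and the 7 endocrine markers (INS, GCG and SST among them) in 7 cases in hILOs, 3 in A5-KO PPs, 2 each in DE, PPs and WT PPs, and 1 in hPSCs. Markers of other cells were present too. The DE markers had a peak in 5 cases in both WT PPs and A5-KO PPs and 3 in the PPs of the first batch and in hILOs. The 5 hepatic markers had a peak in 5 cases in hILOs, 4 in WT PPs, 3 in A5-KO PPs, 1 in DE and 0 in hPSCs and PPs, and the 5 mesenchymal markers in 5 cases in hILOs and A5-KO PPs, 3 in DE and PPs and 2 in hPSCs and WT PPs. Their part in the results was not tested.

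All 10 transcripts carried a peak in hPSCs, 9 did in DE, 5 in PPs and 4 in hILOs. Among all 16228 genes with a peak in hPSCs, 82.6% also had one in DE, 73.9% in PPs and 77.4% in hILOs. The members' 9 of 10 in DE thus lay near that background, and 5 of 10 in PPs and 4 of 10 in hILOs lay below it, in a list of 10 genes chosen with earlier results known. The members fell into 3 kinds. LIN28B, SALL4 and L1TD1 carried a peak in all 6 lists, as did 55.4% of the genes with a peak in hPSCs. POU5F1, NANOG, TDGF1, ZFP42 and PRDM14 had no peak listed in PPs or hILOs of the first batch, as was so for 15.7% of those genes. LIN28A and DPPA4 lay between, with a peak of LIN28A in all 4 stages of the first batch and of DPPA4 up to PPs. The PP peaks of both had a deposited p-value above 1e-05, the limit that the study's methods give for a peak. For peaks outside the ordered stretch this could not be checked.

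**Figure D2:**
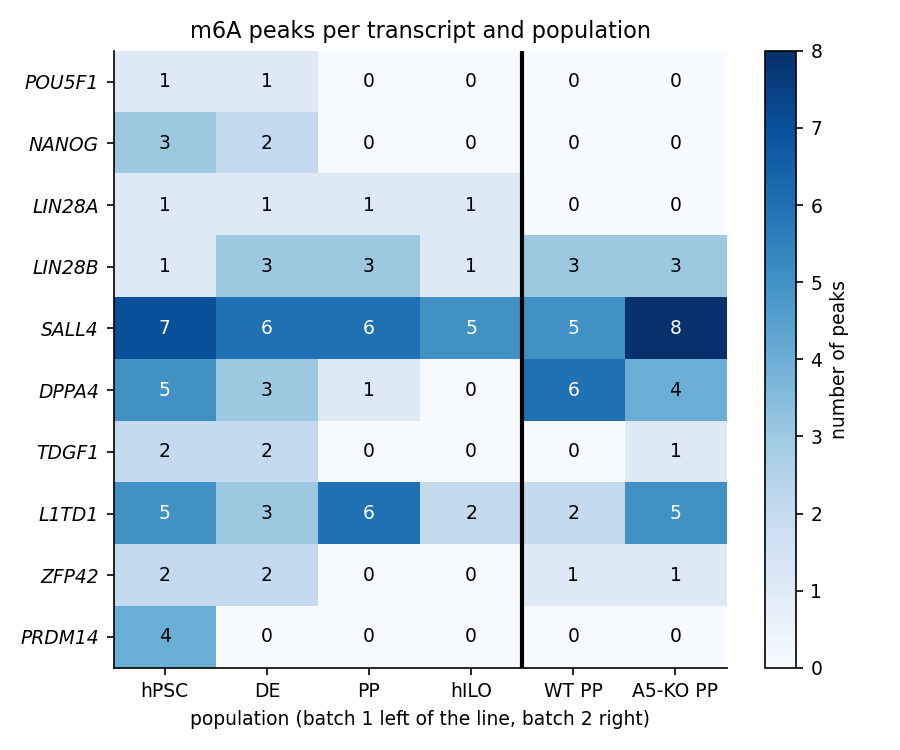
Number of m6A peaks (numbers and colour scale) on each of the 10 transcripts (rows) in each population (columns), with the first batch left of the line and the second right of it. SALL4 held 5 to 8 peaks in each list, while the peaks of POU5F1, NANOG and PRDM14 were listed in hPSCs, or hPSCs and DE, and in no other list.

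POU5F1 carried 1 peak in hPSCs and 1 in DE. The hPSC peak spanned chr6:31164337-31164411 and the DE peak chr6:31164337-31164386 on the minus strand, and both reached the last annotated base of the gene. Their midpoints lay 220 nt and 232 nt past the stop codon, in the 3′ UTR. Both held the GGACA printed above. No peak of POU5F1 was listed in PPs, hILOs, WT PPs or A5-KO PPs.

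NANOG carried 3 peaks in hPSCs and 2 in DE. Its largest peak ran over the stop codon, at chr12:7794955-7795329 in hPSCs and chr12:7794980-7795329 in DE, so that the DE peak lay wholly within the hPSC peak. A second pair of peaks lay further into the 3′ UTR, at chr12:7795580-7795704 in hPSCs and chr12:7795655-7795779 in DE, which shared 50 nt of 125 nt each. The peak at the 5′ end, chr12:7787794-7789466 with 275 nt of exon, was listed only in hPSCs. The pattern of POU5F1 and NANOG, a peak in hPSCs and DE and in no other list, was that of 279 genes, or 1.72% of those with a peak in hPSCs.

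SALL4 carried the most peaks over the 6 lists together, with 7 in hPSCs, 6 in DE, 6 in PPs, 5 in hILOs, 5 in WT PPs and 8 in A5-KO PPs. L1TD1 also had 6 in PPs, and DPPA4 had 6 in WT PPs. Between 13.9% and 22.0% of genes with a peak held 5 or more in these lists, and the median gene held 2. Overlapping peaks were merged over the lists into 9 exonic stretches of SALL4, and 4 of them were covered in all 6 lists. These lay in the CDS at chr20:51791712-51792161 and chr20:51790662-51791286, over the stop codon at chr20:51784031-51784684, and in the 3′ UTR at chr20:51783256-51783705. All 5 hILO peaks of SALL4 were found again in each of the other 5 lists. The 3′ UTR stretch held 3 GGAC sites in its hPSC, DE, PP and hILO peaks and 4 in its WT PP and A5-KO PP peaks, which were longer. A stretch near the 3′ end, chr20:51782506-51782580, was listed in A5-KO PPs alone. SALL4 peaks covered 1700 nt of its exons in hPSCs, 1575 nt in DE, 1475 nt in PPs and 1100 nt in hILOs, against 2700 nt in WT PPs and 2550 nt in A5-KO PPs. The second batch thus had wider SALL4 peaks, and A5-KO PPs had more of them than WT PPs without covering more of the transcript.

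ZFP42 carried 2 peaks in hPSCs and 2 in DE, none listed in PPs and hILOs, and 1 each in WT PPs and A5-KO PPs. The hPSC peaks, chr4:188002870-188003194 and chr4:188003220-188003944, covered most of the CDS and reached into the 3′ UTR. The single WT PP peak spanned chr4:188002820-188003919 and the A5-KO PP peak chr4:188002895-188003919, so the same stretch was covered in both experiments. The wild-type PPs of the first batch thus had 0 listed ZFP42 peaks and those of the second had 1. On its own exons ZFP42 was covered over 1050 nt in hPSCs, 875 nt in DE, 1100 nt in WT PPs and 1025 nt in A5-KO PPs, so the extent was alike wherever it was listed.

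PRDM14 carried 4 peaks in hPSCs and none was listed elsewhere, a pattern shared with 3.57% of genes with a peak in hPSCs. Its rows lay in the ordered stretch. The peak at the stop codon, chr8:70051926-70052250 on the minus strand, held 346 input and 3223 IP reads with a log2 enrichment of 1.79 ± 0.082 (counting SE). The CDS peak at chr8:70069269-70069493 held 484 input and 3884 IP reads with a log2 enrichment of 1.45 ± 0.070. The median log2 enrichment of the 13019 ordered hPSC peaks was 1.70, so the first lay a little above it and the second below. The 3′ UTR peak at chr8:70051676-70051800 (174 input and 1163 IP reads, log2 enrichment 1.30) and the one at the 5′ end at chr8:70071601-70071675 (24 input and 208 IP reads, log2 enrichment 1.27) were lower. The counting SEs cover counting error only, assume that pooled counts were summed over the libraries of a population, and treat reads as independent molecules although PCR copies are not.

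LIN28A carried 1 peak in each of the 4 stages and none was listed in WT PPs or A5-KO PPs, as for 535 genes or 3.30% of those with a peak in hPSCs. The 4 peaks overlapped far into the 3′ UTR, with midpoints 2033 nt (PP), 2046 nt (DE and hILO) and 2121 nt (hPSC) past the stop codon. All 4 shared the 25 nt of chr1:26428504-26428528, which hold the AGACC printed above. The deposited counts were 2145 input and 14548 IP reads in hPSCs, 2965 and 4500 in DE, 147 and 340 in PPs, and 512 and 1177 in hILOs. Input reads, the measure of the RNA itself, were set per 100 nt of peak and per 1000000 in-peak input reads of the list. This density was 179 in hPSCs, 235 in DE, 28.0 in PPs and 8.99 in hILOs. The hPSC density was 0.763 times that of DE (95% counting interval 0.721 to 0.806), 6.40 times that of PPs (5.41 to 7.56) and 19.9 times that of hILOs (18.1 to 22.0). The peak windows differed in length, from 75 nt in PPs to 200 nt in hILOs, and the scale is set by each list's own peaks. Not divided by length, the input reads per 1000000 were 269 in hPSCs, 235 in DE, 21.0 in PPs and 18.0 in hILOs. The order of hPSCs and DE thus turned with the scale, so no direction is given for it. The log2 enrichment was 1.41 ± 0.033 in hPSCs, 1.14 ± 0.034 in DE, 1.14 ± 0.14 in PPs and 1.37 ± 0.076 in hILOs. Enrichment is known only where a peak was listed, so low values are cut off. Of the ordered peaks of each list, 24.9% lay below the LIN28A peak in hPSCs, 4.69% in DE, 13.3% in PPs and 45.8% in hILOs. The input density at the LIN28A site was thus lower in PPs and hILOs than in hPSCs and DE, beyond counting error. From ratios of the deposited counts in place of the deposited enrichment, the difference in log2 enrichment from hPSCs to hILOs turned from -0.05 to 0.32, so no direction is given for it. On that scale the difference from hPSCs to PPs was -0.38, in place of -0.27, that from DE to PPs -0.26, in place of -0.0041, and that from PPs to hILOs 0.69, in place of 0.23.

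LIN28B was listed in all populations, with 1 peak in hPSCs, 3 in DE, 3 in PPs, 1 in hILOs, 3 in WT PPs and 3 in A5-KO PPs. All 6 lists held a peak over the stop codon, and they shared chr6:105078740-105078839. A site at the end of the 3′ UTR, chr6:105083090-105083289, was listed in DE, WT PPs and A5-KO PPs, with the GGACT sequence agtcatctggagGGACTgaagcactgttt inside the stretch these lists share. Upstream exons at chr6:104940866-104941012 were covered in DE, PPs, WT PPs and A5-KO PPs and not in hPSCs or hILOs. LIN28A and LIN28B encode related proteins, and the stop codon peak that LIN28B held in all 6 lists had no listed counterpart on LIN28A.

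L1TD1 carried 5 peaks in hPSCs, 3 in DE, 6 in PPs, 2 in hILOs, 2 in WT PPs and 5 in A5-KO PPs. Fewer peaks did not mean less cover. In DE 1 peak ran over 2250 nt of exon and in hILOs 1 peak over 2475 nt, within a CDS of 2598 nt. Its peaks covered 2425 nt in hPSCs, 2725 nt in DE, 2300 nt in PPs and 2700 nt in hILOs, or 63.3% of its exons in hPSCs and 71.1% in DE. In hPSCs the longest peak covered 1500 nt, chr1:62209798-62211297. The WT PP peaks covered 375 nt and 50 nt of the CDS, whereas the A5-KO PP peaks covered 2075 nt in all, from the 5′ part of the CDS to past the stop codon. Whether this difference exceeds the spread between libraries was not tested. All L1TD1 entries named a second gene beside L1TD1, so these reads cannot be given to L1TD1 alone.

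DPPA4 carried 5 peaks in hPSCs, 3 in DE, 1 in PPs and none listed in hILOs, and 6 in WT PPs and 4 in A5-KO PPs. The 3′ UTR stretch chr3:109327616-109327965 was covered in 5 lists, all but hILO. The peaks of the lists within it differed in length, 250 nt in hPSCs, 225 nt in DE and 50 nt in PPs, and the densities below are each taken over the list's own peak. The counts were 3669 input and 37572 IP reads in hPSCs, 602 and 1483 in DE, and 13 and 58 in PPs. The input density was 184 in hPSCs, 21.2 in DE and 3.72 in PPs, so that hPSCs were 8.67 times as high as DE (95% counting interval 7.96 to 9.45) and 49.5 times as high as PPs (28.7 to 85.3). The log2 enrichment was 2.02 ± 0.025 in hPSCs, 1.85 ± 0.070 in DE and 1.74 ± 0.44 in PPs, where 13 input reads leave it loosely fixed. The PP peaks of both LIN28A and DPPA4 had a deposited p-value above 1e-05, unlike their DE peaks. The input density was thus lower in DE than in hPSCs and lower again in PPs, beyond counting error, with no value for hILOs. The log2 enrichment differed from hPSCs by -0.17 in DE and -0.29 in PPs, or by -0.018 and -0.063 from ratios of the deposited counts. In the second batch DPPA4 peaks again covered 3′ UTR and CDS, over 1475 nt in WT PPs and 1050 nt in A5-KO PPs, against 50 nt in the PPs of the first batch.

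Upstream, DPPA4 carried further hPSC peaks in the ordered rows. The entry at chr3:109333818-109336394 held 1388 input and 11472 IP reads (log2 enrichment 1.65), that at chr3:109333493-109333792 held 295 and 3699 (2.22), that at chr3:109332013-109332062 held 1215 and 8453 (1.38) and that at the 5′ end, chr3:109337502-109337572, held 90 and 675 (1.43). In DE shorter peaks lay within the first 2 of these, chr3:109333868-109333917 and chr3:109333493-109333642, covering 50 nt of 250 nt and 150 nt of 300 nt. They held 130 and 254 reads (log2 enrichment 1.50) and 68 and 174 reads (1.99). In both populations the entry that starts at 109333493 had the highest log2 enrichment of the DPPA4 peaks, in DE with a counting SE of 0.21 that spans its distance to the 3′ UTR peak.

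**Figure D3:**
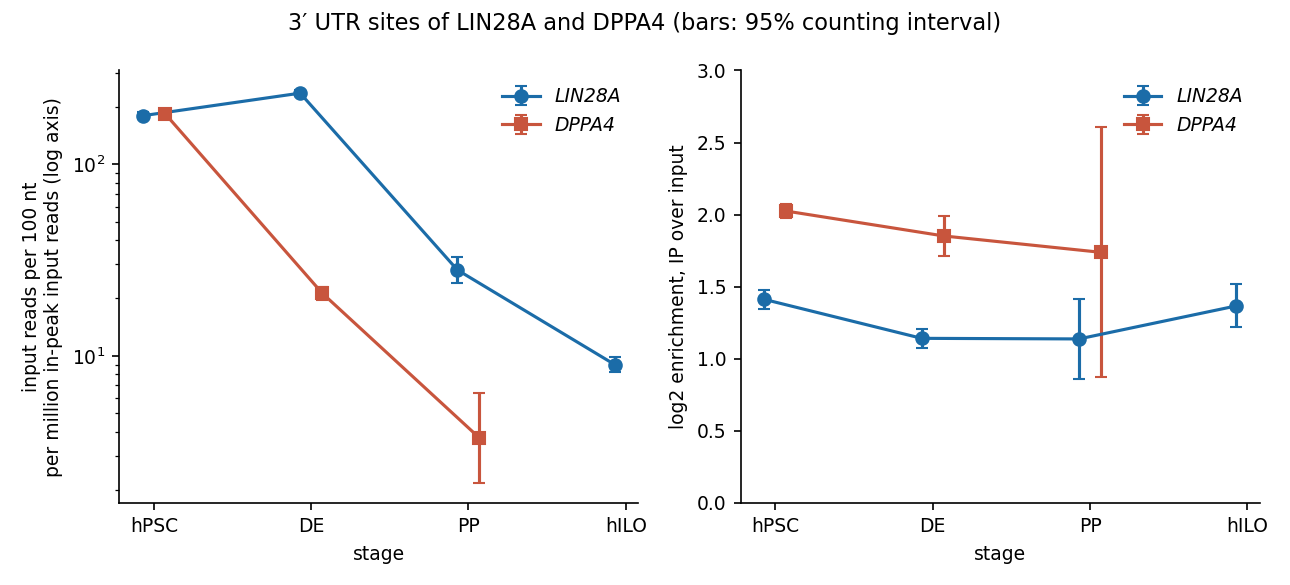
Input reads per 100 nt per 1000000 in-peak input reads (left, log axis) and deposited log2 enrichment of IP over input (right) at the 3′ UTR sites of LIN28A (circles, blue) and DPPA4 (squares, red) by stage, with 95% counting intervals as bars. DPPA4 has no hILO point because no peak was listed there. LIN28A density ran from 235 in DE to 8.99 in hILOs and DPPA4 density from 184 in hPSCs to 3.72 in PPs. The log2 enrichment lay between 1.14 and 1.41 for LIN28A and between 1.74 and 2.02 for DPPA4. Enrichment is known only where a peak was listed, so its range is cut off from below.

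TDGF1 carried 2 peaks in hPSCs and 2 in DE. A 3′ UTR site was shared, chr3:46582182-46582231 in hPSCs lying inside chr3:46582132-46582256 in DE. The other hPSC peak, chr3:46581982-46582106, lay beside it in the 3′ UTR. An A5-KO PP entry also named TDGF1, but it named 3 genes, began at chr3:46582703, past the end of TDGF1 at 46582457, and covered 0 nt of TDGF1 exons. Counted on own exons, the members with a peak were 5 and not 6 in A5-KO PPs and were the same in the other lists. The hPSC and DE entries of TDGF1 also named 2 or 3 genes.

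At overlapping peaks whose rows were in order in both lists, the log2 enrichment could be compared directly. A difference of at least 1 in size was counted, which was met by 3.00% of all 8057 such pairs from hPSCs to DE, 4.78% of 2551 from hPSCs to PPs, 2.68% of 1976 from hPSCs to hILOs, 3.05% of 2298 from DE to PPs, 2.05% of 1955 from DE to hILOs and 1.60% of 1879 from PPs to hILOs. Of the members, 0 of 4, 0 of 2, 0 of 1, 0 of 2, 0 of 1 and 0 of 1 pairs met it, which so few pairs cannot set apart from those shares. From hPSCs to DE the 4 pairs differed by -0.27 for LIN28A and by -0.15, -0.23 and -0.17 for DPPA4, against a median of -0.11 over all pairs. From ratios of the deposited counts these were -0.12 for LIN28A and -0.045, -0.26 and -0.018 for DPPA4. From hPSCs to PPs the differences were -0.27 for LIN28A and -0.29 for DPPA4, against a median of -0.28. From hPSCs to hILOs LIN28A differed by -0.05, against a median of -0.26, and from ratios of the deposited counts by 0.32. The lists were normalised separately, so the medians of all pairs are part of what each difference holds.

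Peak positions could be compared in full, for all 119 peaks. A peak counted as found again when peaks of the other list, on the same strand, covered more than 50% of its exonic length. Of the 31 hPSC peaks, 17 (54.8%, Wilson 95% interval 37.8% to 70.8%) were found again in DE, 8 (25.8%, 13.7% to 43.2%) in PPs and 11 (35.5%, 21.1% to 53.1%) in hILOs. Of all hPSC peaks, 52.5% were found again in DE, 40.9% in PPs and 49.1% in hILOs. The members' share lay near the background in DE, and in PPs and hILOs it lay below, with the background inside the interval in each case. The order depends on the overlap rule, since with any overlap counted the member share in PPs was 41.9% and with reciprocal overlap above 50% that in hILOs was 22.6%. The background was taken under the first rule only. The peaks found again in hILOs belonged to LIN28B, SALL4, L1TD1 and LIN28A. Peaks of the same transcript are not independent, so the intervals describe counting error only.

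Between the genotypes, 13 of 17 WT PP peaks (76.5%, 52.7% to 90.4%) were found again in A5-KO PPs and 15 of 22 A5-KO PP peaks (68.2%, 47.3% to 83.6%) in WT PPs. The same shares over all peaks were 50.0% and 46.8%. Both member shares lay above the background, the second with an interval that starts just above it. The members' peaks were also wider. Their median exonic length was 425 nt against 175 nt over all WT PP peaks, and 337 nt against 175 nt in A5-KO PPs. SALL4 alone gave 5 of the 17 peaks and 8 of the 22. The part of width and of SALL4 in these shares was not tested. With reciprocal overlap above 50% they were 64.7% and 50.0%, and the background was not taken under that rule. Of the genes with a peak in WT PPs 89.7% had one in A5-KO PPs, and in the other direction 68.9%. All 5 members with a WT PP peak (LIN28B, SALL4, DPPA4, L1TD1 and ZFP42) had one in A5-KO PPs. SALL4 and L1TD1 had 3 more peaks each in A5-KO PPs, DPPA4 had 2 fewer, and LIN28B and ZFP42 had the same number. The A5-KO PP list was itself longer, 55219 peaks against 43312.

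**Figure D4:**
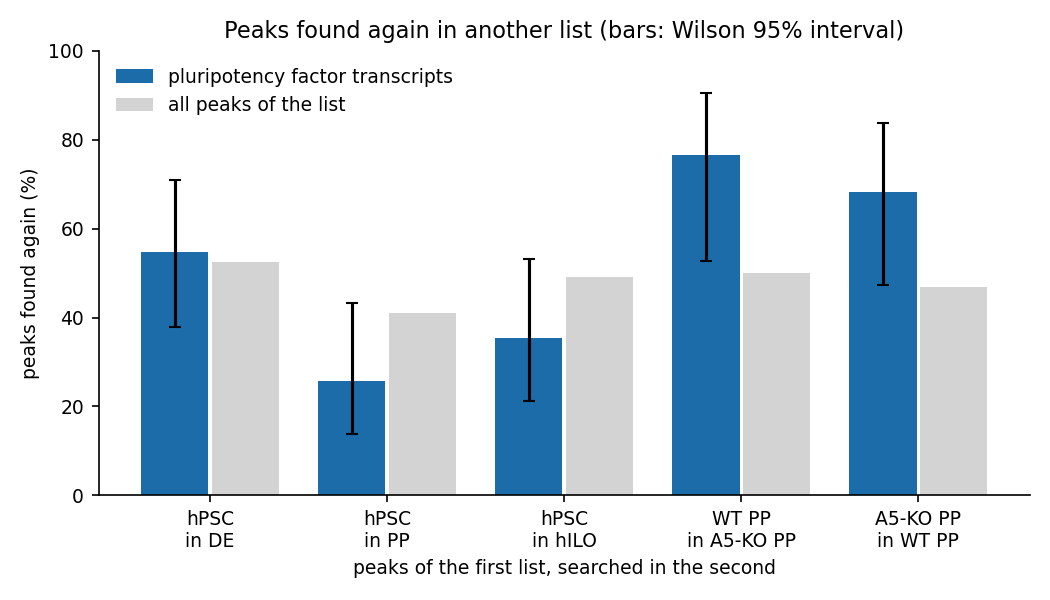
Share of peaks of the first list (x axis labels, upper line) found again in the second (lower line), in percent, for the peaks of the 10 transcripts (blue, Wilson 95% intervals as bars) and for all peaks of the list (grey). The blue bars stand at 54.8%, 25.8%, 35.5%, 76.5% and 68.2% and the grey at 52.5%, 40.9%, 49.1%, 50.0% and 46.8%.

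Merged over all lists, the peaks covered 49 exonic stretches. Of these, 7 were covered in all 6 lists, 2 in 5, 5 in 4, 4 in 3, 6 in 2 and 25 in 1 list. The 25 include 4 stretches of the A5-KO PP entry that named TDGF1 but lay outside its exons. The 7 were the stop codon stretch of LIN28B, 4 stretches of SALL4 and 2 of L1TD1. Merging joins peaks that touch in any list, so long stretches such as those of L1TD1 are more easily covered in all lists than short ones.

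**Figure D5:**
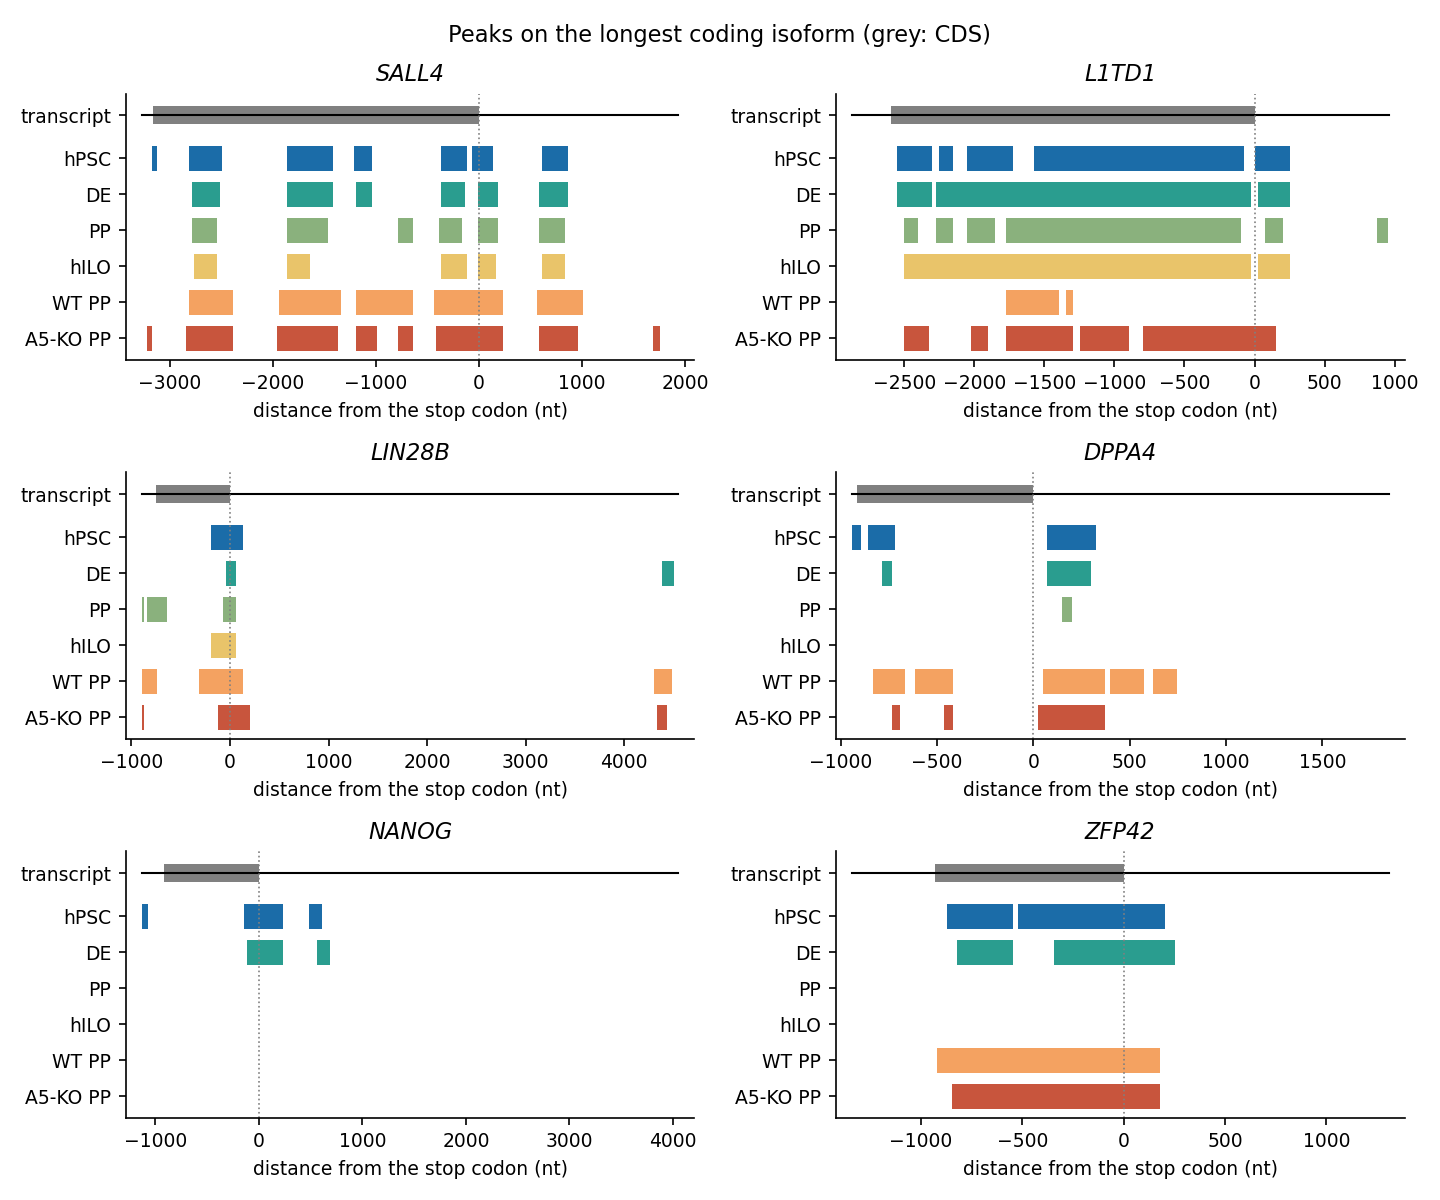
Exonic extent of the peaks of SALL4, L1TD1, LIN28B, DPPA4, NANOG and ZFP42 in each population (coloured rows) along the longest coding isoform (black line, CDS in grey), with distance from the stop codon in nt on the x axis. Parts of peaks on exons outside that isoform are not drawn. SALL4 rows line up in 4 stretches in all 6 lists, and NANOG rows are filled in hPSCs and DE only.

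By position, 112 of the 119 peaks had their midpoint on the longest coding isoform, with 57.1% in the CDS, 37.5% in the 3′ UTR and 5.36% in the 5′ UTR. Over all 166690 placed peaks these shares were 54.2%, 39.1% and 6.72%. Within 200 nt of the stop codon lay 22.3% of the members' midpoints and 19.4% of all. GGAC, searched on the transcript strand, occurred 4.30 times per kb of exonic sequence in the members' peaks and 4.44 times in all peaks. Among peaks of at most 400 nt, 47.4% of the members' 95 and 49.3% of all held a GGAC, and 93.7% and 89.3% held a DRACH, in which any base but C comes first, a purine second and any base but G last. GGAC is part of some DRACH matches. The members' peaks were thus close to all peaks in place and motif, and no test was made.

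The members' partners in the pluripotency network, a list of 33 genes, had a peak in 27 cases in hPSCs, 20 in DE, 16 in PPs, 15 in hILOs, 18 in WT PPs and 18 in A5-KO PPs. Of the 27, 12 had no peak listed in PPs and hILOs, against 15.7% of all genes with a peak in hPSCs. These were the NODAL ligand family genes NODAL, LEFTY2 and GDF3, the transcription factors FOXD3, OTX2, ZIC2, UTF1, TFCP2L1 and VRTN, the signalling genes FGF4 and GAL, and the non-coding RNA ESRG. FOXD3 had 5 peaks in hPSCs and ZIC2 had 4. VRTN, OTX2 and TFCP2L1 were listed again in the second batch. VRTN had 5 peaks in hPSCs, 6 in WT PPs and 5 in A5-KO PPs, OTX2 had 2, 3 and 3, and TFCP2L1 had 1, 1 and 2. Another 12 of the 27 had a peak in all 6 lists, against 55.4% of all genes with a peak in hPSCs. The partners with the most hPSC peaks were SALL2 (10), PODXL (7) and PHC1 (6), and each of them had a peak in every list.

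Several members have annotated copies or pseudogenes, and 1 alignment per read was kept, so reads could be split between a gene and a copy of like sequence. Sequence identity was not measured. Of 38 annotated genes that share a member's symbol stem, which include NANOGNB and its pseudogenes, 5 had a peak in any list. POU5F1B, a copy of POU5F1, had 5 peaks in hPSCs, 3 in DE, 0 in PPs, 2 in hILOs, 5 in WT PPs and 16 in A5-KO PPs, so its peaks were more than those of POU5F1 in all lists but PP. NANOGP1 had 2 peaks each in hPSCs and DE and none elsewhere, like NANOG. NANOGP8 had 2 in hPSCs and 1 in A5-KO PPs, NANOGP4 had 1 in hPSCs and 1 in WT PPs, and TDGF1P7 had 1 each in DE, WT PPs and A5-KO PPs. Whether such splitting changed the number of peaks listed for POU5F1, NANOG and TDGF1 was not tested.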

How the data were processed

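m6A-seq peak lists of 6 populations were analysed, each labelled with 2 IP and 2 input libraries. According to the study's methods, the authors used fastp for trimming, HISAT2 for alignment to GRCh38 with a single alignment per read, and exomePeak2 to call peaks. The deposited lists number 1 per population. The deposited columns hold a read count for IP and input pooled over libraries, a log2 enrichment of IP over input, and a p-value. The members and gene lists were chosen with earlier results of these data known. Peak spans were limited to the exons of the named gene in GENCODE 44, which held 99.9% of the peaks' genes, in Python 3.11.15 with pandas 2.3.3 and SciPy 1.17.1. Counts, enrichments and p-values were used only for rows in the longest run of ascending gene identifiers, less 50 rows at each end, a rule set on coordinates alone after seeing the data. The functions were tested on simulated data. Counting errors are Poisson errors of the deposited counts. All 10 members were named, and of 33 partners (1 further gene of the list is not reported here) those with an hPSC peak and none in PPs and hILOs, and the 3 with most hPSC peaks; OTX2, TFCP2L1 and VRTN were singled out after their values were seen. The planned search for genes of similar profile needs values in all lists and was not made. Alternatives varied the overlap rule, peak thresholds, scale and placing.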

Additional observations from a re-analysis of the deposited data

How the results depend on the processing

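No paired analysis was possible because each list pools the libraries of a population and holds no value per library, and leaving out 1 library could not be run for the same reason. Of 69 alternatives, 51 kept their value within its error and 18 moved. The sign of 1 difference, LIN28A log2 enrichment from hPSCs to hILOs, turned. The 51 include a filter of at least 50 input reads in both lists, applied to single pairs of peaks. That filter could only keep the value, so the 51 overstate how stable the results are. With any overlap counted, 71.0% of hPSC member peaks were found again in DE and 41.9% in PPs, and with reciprocal overlap 22.6% in hILOs. With any overlap in place of the midpoint, 48.2% of placed member peaks touched the 3′ UTR and 66.1% the CDS. Thresholds could be applied only to rows in order. At an IP over input of at least 3, of 10, 4, 2 and 1 peaks in hPSCs, DE, PPs and hILOs there remained 4, 2, 1 and 0. At p below 1e-10, 7 of 10 remained in hPSCs, 2 of 4 in DE, 0 of 2 in PPs and 1 of 1 in hILOs, and at p below 1e-05, 9 of 10, 4 of 4, 0 of 2 and 1 of 1, so both PP values for LIN28A and DPPA4 rest on peaks above that p; the shares over all ordered peaks were not taken. Scaled by the median of 845 genes in order in all 4 stages, the hPSC over hILO ratio for LIN28A was 15.9, in place of 19.9. From ratios of the deposited counts, the differences from hPSCs to DE were -0.12 for LIN28A, in place of -0.27, and -0.018 for the DPPA4 3′ UTR peak, in place of -0.17. LIN28A was higher in hILOs than in PPs by 0.69 on the log2 scale, in place of 0.23, higher in hILOs than in DE by 0.44, in place of 0.22, and differed from hPSCs to hILOs by 0.32, in place of -0.05; the cause was not tested. Counting members on their own exons was added after seeing the data.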
